A study of Mus musculus with 134 samples.

Results

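SET-seq profiles chromatin and RNA of the same cells: it holds the nuclei of a sample on concanavalin A beads for the chromatin part and makes the expression library from the cytoplasmic RNA left in the supernatant. The first 48 single cells carried through this assay in the H3K27me3 experiments with Wnt3a beads are described here. They were taken by name, as every cell of H3K27me3 expression experiments 1, 2 and 3, with 16 cells in each experiment. The expression experiments with beads held 752 single cells in all. The counts of the 16 cells of an experiment were summed, which gave 3 sums, and the sums were compared with 4 bulk expression libraries of the same assay, 2 made from 1000 cells and 2 from 10000 cells. All were mouse embryonic stem cells (mESCs) of the line ES-E14TG2a (E14, strain 129/Ola), with the age given as day1. The bulk cells are labelled untreated. The single cells had been kept with Wnt3a-coated beads for 12 h and were picked one by one, were indexed with barcoded Tn5 transposomes before pooling, and were counted over exons and introns, whereas the bulk libraries were counted over exons. Bead contact, picking, library chemistry and counting rule changed together between the 2 kinds of sample, so their shares in any difference below cannot be told apart.

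As background, E14 cells are a feeder-free line that keeps the naive pluripotency network of Pou5f1, Sox2, Nanog, Esrrb and Zfp42 active in serum with LIF. Oligo-dT priming copies polyadenylated mRNA from its tail, and a stretch of A inside an intron can prime as well, so that unspliced RNA can enter such a library. A count over exons leaves intronic reads out. A count over the whole gene takes them in, and a gene with long introns then offers far more sequence to be counted than its mRNA does.

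The microRNA genes Mir684-1 and Mir3084-1 carry several of the results and are shown first. The annotation used for counting places Mir684-1 at 9 positions on 7 chromosomes and Mir3084-1 at 2 positions of chromosome 19, and a counting rule that takes everything between the first and the last copy on a chromosome would make a very long gene of each. In mm9, Mir684-1 has one copy at chr11:74879409-74879493 and one at chr11:115384446-115384530, both on the minus strand, and all 9 copies share the same 85 bases. Mir3084-1 has its copies at chr19:25016726-25016793 and chr19:60850235-60850300 on the minus strand, and they share 66 bases. The copies are given 5′ to 3′ from the mm9 genome with the shared bases in capitals, followed by the mature microRNAs of the second gene from RefSeq (GRCm38.p6) with the seed, bases 2 to 8, in capitals:
Mir684-1: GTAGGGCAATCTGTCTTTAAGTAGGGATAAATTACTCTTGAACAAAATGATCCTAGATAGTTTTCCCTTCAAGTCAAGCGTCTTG
Mir3084-1: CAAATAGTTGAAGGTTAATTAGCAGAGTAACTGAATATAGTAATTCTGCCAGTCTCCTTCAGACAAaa
mmu-miR-3084-3p: uUCUGCCAgucuccuucagac
mmu-miR-3084-5p: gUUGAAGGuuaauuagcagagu

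The libraries differed in depth. Cells held 29966 to 4523097 counts with a median of 1495419, the 3 sums held 28552795, 30381277 and 15103268 counts, and the bulk libraries 1585518 to 4522954. Rn45s, the ribosomal RNA precursor, took 0.441% to 31.4% of a cell's counts and 21.9% to 24.9% of a bulk library's, and was left out of every value that follows. Of the 48 cells, 29 had between 1000 and 5000 genes with a count, and 46 reached 100000 counts, the depth to which cells were thinned at random for comparisons between cells (16, 16 and 14 in experiments 1, 2 and 3). The study describes the 3 experiments as independent. Each cell was identified by a barcode of 16 bases, the 16 barcodes and their wells were identical in the 3 experiments, and the sums shared signal by barcode. For genes with at least 500 counts in 1 cell and at most 20 in any other cell of its experiment, 1511 to 2560 genes per experiment, the cell with the same barcode in another of the 3 experiments had a count in 97.9% to 99.2% of cases, against 22.7% to 31.7% for cells with other barcodes. The median count there was 0.514% to 0.768% of the count in the first cell. Setting to 0 every count that was at most 1/50 of the count at the same barcode in another of these experiments removed 14.8%, 13.5% and 24.4% of the values above 0, but 0.311%, 0.259% and 0.928% of the counts. The same 16 barcodes were also used in H3K27me3 experiments 5 and 6 and in H3K4me3 experiments 2 to 6, where a count at the same barcode was found in 8.54% to 34.7% of cases against 7.47% to 29.2% at other barcodes, except in H3K4me3 experiment 6 with 67.7% to 72.8% against 44.1% to 57.8%. Shares of cells with a count are therefore given with and without this step.

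The cells carried the markers of mESCs, unevenly. Dppa5a, a naive-state marker, had a count in 48 cells, and in 30 after the removal of counts shared by barcode. Zfp42 had a count in 47 cells (28 after removal), Nanog in 40 (26), Utf1 in 43 (28) and Tdgf1 in 35 (20). Pou5f1, which encodes the central pluripotency factor OCT4, had a count in 16 cells (9 after removal) and Esrrb in 20 (15). Sox2 was not analysed here. Markers of other cell types were summed as well. Primitive endoderm markers summed to 0.00123%, 0.0332% and 0.0729% of counts in the 3 sums against 0.0238% to 0.0371% in bulk, trophoblast markers to 0.00174% to 0.0106% against 0.00707% to 0.0107%, and fibroblast markers to 0.00152% to 0.0236% against 0.000925% to 0.00238%. The fibroblast share of sum 3 was thus above that of every bulk library. Of its members, Thy1 was at 0 in all 48 cells, Col1a1 at 0.413 CPM or less in each sum, and Dcn, a matrix proteoglycan, at 33.9, 44 and 0 CPM in the sums and at 0 in the 4 bulk libraries. None of these named members makes up the share of sum 3, and the members that do are not reported here. The part of these markers in the results was not tested.

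Single cells of experiments 1 and 2 were dominated by genes that stood at nearly the same level in every cell and that were close to absent from bulk. A gene was called even when its mean was at least 20 of 100000 thinned counts and its coefficient of variation (CV, SD over mean) over the cells of an experiment was below 0.5. Experiment 1 had 316 even genes of 568 that reached the mean, experiment 2 had 328 of 599, and experiment 3 had 4 of 916. The even genes took 63.2% and 62.6% of all thinned counts in experiments 1 and 2, and 10.0% in experiment 3. Their median level in bulk was 2.41 and 2.04 raw CPM (counts per library total, unscaled), against 402 and 454 for the other genes of the same abundance range in the same cells. The CV over cells had a median of 0.414 and 0.445 in experiments 1 and 2 and of 2.01 in experiment 3, as the plot of CV against mean shows.

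**Figure D1:**
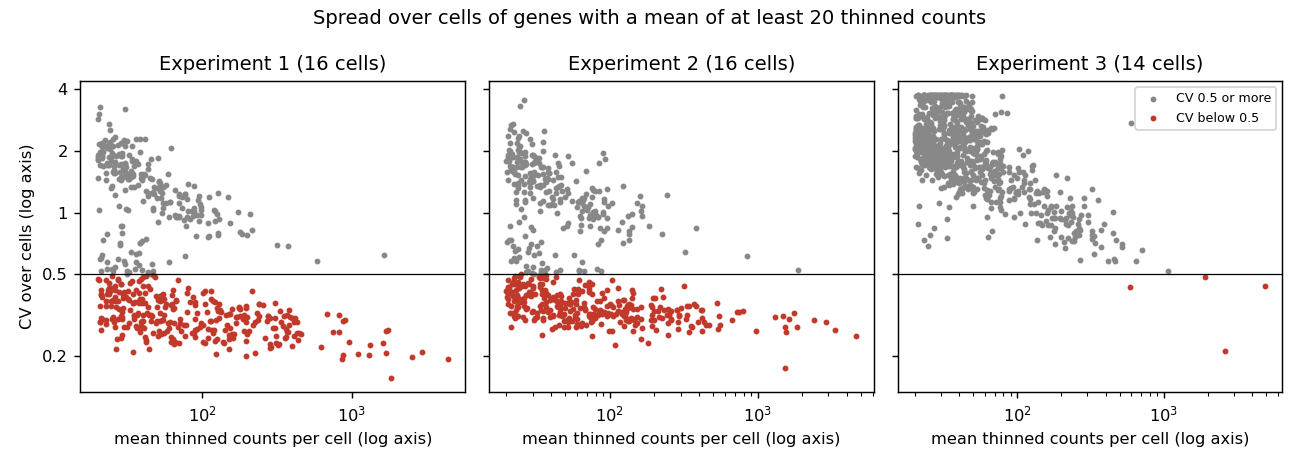
CV over the cells of an experiment (y axis, log scale) against the mean of thinned counts per cell (x axis, log scale) for genes with a mean of at least 20, 1 point per gene, with even genes in red. Experiments 1 and 2 show a band of 316 and 328 even genes under the line at 0.5, and experiment 3 shows 4 points there.

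Experiments 1 and 2 shared 226 even genes, 71.5% of those of experiment 1 and 68.9% of those of experiment 2. These 226 genes held 55.4% and 54.6% of the counts in sums 1 and 2, 5.48% in sum 3, and 0.559% to 0.672% in the bulk libraries. Of a gene's summed counts in experiments 1 and 2, sum 3 held a median of 0.61% (quartiles 0.0972% and 3.04%), which is close to the size of the signal shared by barcode. What part of the counts in experiment 3 came from that sharing was not tested. The 226 genes were chosen on the cells themselves, so their excess over bulk is a description.

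Sos2, a guanine nucleotide exchange factor for Ras, had 1697 to 3513 thinned counts per cell in experiment 1 (median 2587), 1645 to 4932 in experiment 2 (median 3195) and 70 to 854 in experiment 3 (median 240), at 8.57 raw CPM in bulk. Fli1, an ETS transcription factor of blood and endothelium, ran from 1112 to 2565 (median 1721), from 390 to 2077 (median 1474) and from 16 to 187 (median 43.5), with 2 counts in the 4 bulk libraries together. Every cell of experiments 1 and 2 exceeded every cell of experiment 3 for both genes. Aebp2, which encodes an accessory subunit of the H3K27 methyltransferase complex PRC2, spanned 1093 to 2328 and 818 to 3524 thinned counts in experiments 1 and 2, and reached 10 counts in 1 of 14 cells of experiment 3. Its bulk level was 66.2 raw CPM. Haus4, an augmin subunit of the mitotic spindle, stood at 506 to 1100 in experiment 1, at 1029 to 4238 in experiment 2 and at 2 to 23 in experiment 3. The level of an even gene could also differ between the first 2 experiments. Hmcn2, which encodes an extracellular hemicentin, had a median of 2977 in experiment 1 and of 187 in experiment 2, with no cell of the second above 312 and none of the first below 2004.

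Genes that bulk mESCs express strongly behaved in the opposite way. Nanog had a median of 1, 0 and 0.5 thinned counts in experiments 1, 2 and 3 and a highest value of 91, 68 and 155, at 1340 raw CPM in bulk. Dppa5a ran from 0 to 278, 0 to 246 and 0 to 352. Actb, cytoplasmic actin, ran from 0 to 372, 0 to 292 and 0 to 830, so that each experiment held cells without a count beside cells at a high level. Rpl41, a ribosomal protein of the large subunit, had a median of 65, 131 and 505 and was the steadiest of these 4 genes, at a CV of 1.25, 0.736 and 0.676. Lars2, the mitochondrial leucyl-tRNA synthetase, was even in experiment 3 (84 to 3010, median 2175) and ranged from 10 to 1142 and 79 to 1844 in the other experiments. The other even genes of experiment 3 were Mir684-1, Myo3a and Zc3h7a.

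**Figure D2:**
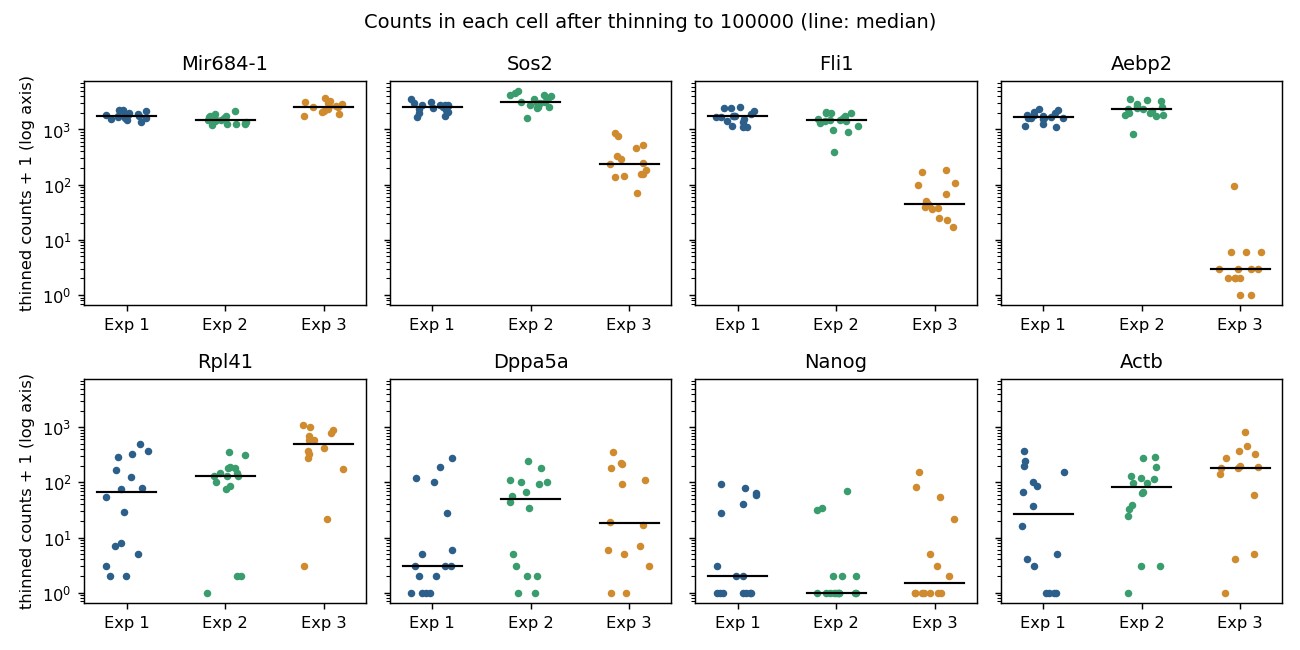
Thinned counts plus 1 in each of 46 cells (y axis, log scale) for 8 genes by experiment, with a line at the median. In experiments 1 and 2 Sos2, Fli1 and Aebp2 form tight groups above those of experiment 3, whereas Nanog, Dppa5a and Actb spread from 0 up to 68 or more counts in each experiment.

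Genes other than the even ones were detected in more cells at a higher bulk level. Among genes at 1000 or more raw CPM in bulk, 91 genes, the median gene reached 10 thinned counts in 26 of 46 cells. Between 100 and 1000 raw CPM the median was 4 cells, with 5.91% of 2183 genes reaching it in no cell, and between 10 and 100 it was 1 cell, with 42.9% of 5952 genes in none. Of 3651 genes at 1 to 10 raw CPM, 72.3% reached 10 counts in no cell. Across 11108 genes the log2 CPM of sums 1 and 2 correlated at r = 0.577, of sums 1 and 3 at 0.31 and of sums 2 and 3 at 0.326, against 0.99 and 0.985 within the bulk pairs. With the mean of bulk the sums correlated at 0.126, 0.145 and 0.223, and without the even genes, over 10690 genes, at 0.221, 0.244 and 0.238. These r values are across genes, which are not independent replicates, and the sums share barcodes.

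The even genes recurred in part in cells that the choice did not use. The 226 genes held 34.2% to 47.9% of counts in 6 of the 7 later H3K27me3 experiments and 13.8% in the seventh, and 4.42% to 25.2% in the 6 H3K4me3 experiments. In H3K27me3 experiment 6, in which all 48 cells reached 100000 counts, 250 genes were even and 113 of them were among the 226, which is 50% of the 226 and 45.2% of the 250. Experiments 8, 9 and 10 had fewer even genes, 112, 122 and 39, of which 44, 53 and 16 were among the 226 (19.5%, 23.5% and 7.08% of the 226). In H3K4me3 experiments 1, 2, 3, 5 and 6 the shared even genes numbered 0, 1, 4, 8 and 1.

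**Figure D3:**
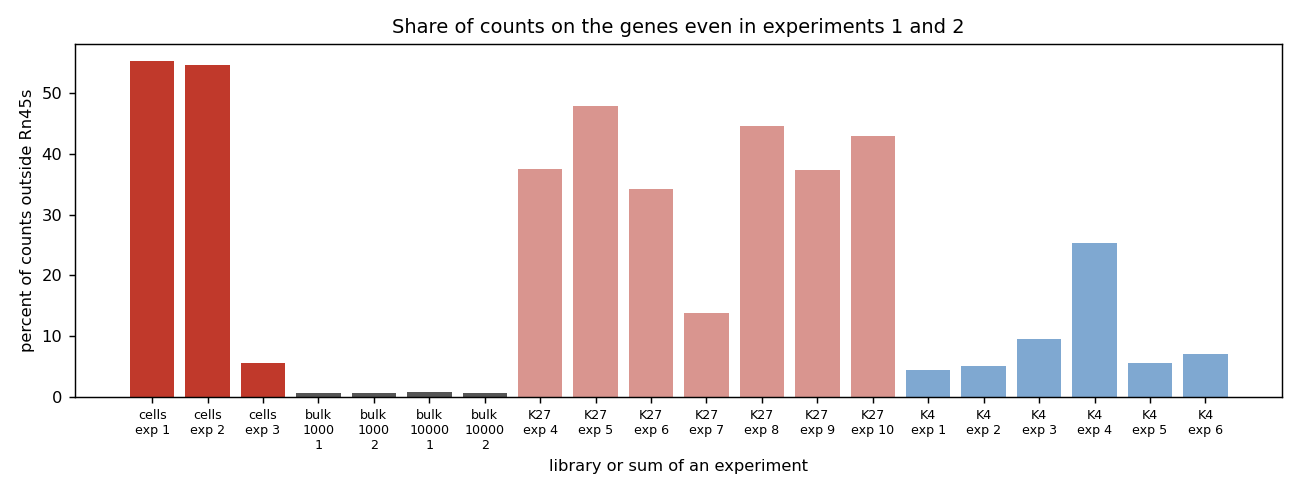
Percent of counts outside Rn45s (y axis, from 0) on the 226 genes even in experiments 1 and 2, 1 bar for each of the 3 sums of the first cells (red), the 4 bulk libraries (dark grey) and the sums of the later H3K27me3 (pink) and H3K4me3 (blue) experiments. Sums 1 and 2 stand at 55.4% and 54.6%, sum 3 at 5.48% and the bulk libraries at 0.559% to 0.672%.

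The comparison of the 3 sums with the 4 bulk libraries asked which genes differ between single cells and bulk of one assay. Levels from here on are CPM on a library size scaled by the trimmed mean of M values (TMM), and a gene was called with edgeR's quasi-likelihood test at an adjusted p below 0.05 and an absolute log2 fold change above 1. Of 11770 genes tested, 1668 were higher in single cells (14.2%) and 3291 lower (28%), 42.1% together, with a median log2 fold change of 0.26. Each sum was also set against bulk on its own, as log2 of CPM plus 1 minus the bulk mean. On that scale the median gene lay below bulk in every sum, at -1.47, -1.37 and -0.95. The groups did not overlap for 1795 genes higher in cells (15.3%) and for 3833 lower (32.6%). Called-higher genes took 76.4%, 75.5% and 40.3% of counts in the sums against 8.17% to 9.2% in bulk. Called-lower genes took 0.0581%, 0.0702% and 0.176% against 8.95% to 9.79%. Without sum 3, which stands apart, 2247 genes were higher and 4741 lower. Without any 1 bulk library, 796 to 1005 genes were higher and 2923 to 3077 lower. Scaled by DESeq2, 3024 genes were higher and 3304 lower and the median of all genes was 1.01, so the sign of a fold change near 0 rests on the scaling. The TMM factors were 0.315, 0.342 and 0.934 for the sums and 1.7 to 1.85 for the bulk libraries. Scaled CPM therefore raise the sums against bulk when compared with raw CPM.

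The 10 largest rises were genes with at most 2 counts in bulk, several of them long genes known from other tissues, and all but Myo3a were even in experiment 1 or 2. With so few bulk counts they passed the filter on low counts through the cells. Their adjusted p-values are therefore not read as support for a rise. Fli1 had 53592, 40810 and 522 CPM in the sums, and 0.202, 0, 0 and 0.169 CPM in the bulk libraries, a ratio of 261967 with a counting interval of 72520 to 2163146 (adjusted p = 0.0025). Gm20755 had 41016, 42687 and 78.1 CPM and 1 count in bulk, and Cdh20, a cadherin, 26530, 15090 and 49.7 CPM with 2 counts in bulk. Myo3a, an unconventional myosin of hair cells, was the one gene of this group at a like level in the 3 sums, at 10819, 5466 and 6095 CPM against 1 count in bulk (log2 fold change 17.23, SE 0.86, adjusted p = 0.0025). For each of the other 9, sum 3 was below sums 1 and 2, and what part of its counts came from the signal shared by barcode was not tested. Rbfox1, a neuronal splicing regulator, had 11031, 7932 and 74.6 CPM, B230323A14Rik 11575, 7271 and 5.7, and the neuronal adhesion gene Cntn4 10099, 3579 and 33.4, each with 1 count in bulk.

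Lrmda, Eya4 and Havcr1 had no count in any bulk library. Against a floor of 3 counts over the 4 libraries they were at least 39021-fold, 17932-fold and 15330-fold higher in the sums. Lrmda stood at 9292, 11650 and 12.6 CPM, the developmental regulator Eya4 at 1058, 8227 and 3.97 and Havcr1, a kidney injury and immune receptor, at 4913, 3448 and 5.21. Mir3084-1 had the highest level among genes at 0 in bulk, with 135458, 130521 and 7840 CPM, at least 511348-fold higher. Gm3629 followed the same rule at 3066, 2720 and 2081 CPM. All 12 of these genes were also called higher in the H3K4me3 cells against their own bulk libraries, a comparison with no shared library but with shared barcodes in H3K4me3 experiments 2 to 6. Genes at 0 in bulk enter that test only through the cells, and all 352 such genes tested there were called higher. Little can therefore be read from this recurrence.

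The deepest falls were genes at 0 in all 48 cells. Scaf1, an SR-related factor that binds RNA polymerase II, stood at 113, 80, 86 and 90.8 CPM in bulk and was at least 924-fold lower in cells against a floor of 3 counts over the 3 sums. Mtch1, a mitochondrial carrier homolog, was at 84.6 to 100.5 CPM in bulk and at least 910-fold lower, Mapk3, the kinase ERK1, at 66.3 to 93.5 CPM and at least 830-fold lower, and Med17, a Mediator subunit, at 59.5 to 64.9 CPM and at least 607-fold lower. Tpgs1, Trappc2l, Crk, Babam1, B9d1 and Ndufb3 completed the 10 and lay between these bounds. None of the 10 was called in the H3K4me3 comparison, where all were detected in cells, Tpgs1 and Crk at a mean of 11402 and 12054 CPM. The TMM factor of H3K4me3 sum 1 was 0.0202, against 0.309 to 1.87 for the other sums and 2.87 to 3.24 for bulk. A mean CPM over these sums can therefore rest on that sum alone and is not read as a level across the H3K4me3 cells. In all, 1202 tested genes were at 0 in the 48 cells and 1201 of them were called lower. The median dispersion was 1.93 between sums and 0.00958 between bulk libraries. A gene at 0 in every sum shows no spread there, so its p-value rests on the bulk libraries. The fold bounds cover counting error only and not the loss of RNA in single cells.

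Rises and falls were followed in the H3K4me3 cells. In that comparison 1511 of 12589 genes were higher (12%) and 225 lower (1.79%), and the groups did not overlap for 7.85% higher and 9.92% lower. Its lower count was unstable, at 2 without any 1 bulk library and at 1010 without H3K4me3 experiment 6. Of 1358 genes called higher in the first cells and tested in both, 813 were called higher again, which is 59.9% against a background of 8.81%. That background covers all genes, whereas 904 of the 1668 higher genes were under 1 CPM in bulk. Of genes under 1 CPM in the H3K4me3 bulk libraries, 1210 of 2170 tested were called higher. Such genes pass the filter through the cells, so the 59.9% is not read as replication. Of 3228 called lower, 85 were called lower again, which is 2.63% against 1.24%. One fit over the libraries of both comparisons, added after the data were seen, tested the difference between the 2 contrasts. Over 13044 genes it found 15% further down in the first cells than in the H3K4me3 cells and 1.43% further up.

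Genes with long introns stood higher in single cells and genes without introns lower. The 1723 genes with over 100000 intron bases had a median log2 fold change of 3.66, with 847 higher and 142 lower. At over 30000 to 100000 bases the median was 0.37, with 410 of 3143 genes higher and 748 lower. The 3 classes from 1 to 30000 bases lay at -0.26, -0.26 and -0.23. The 206 genes without an intron had the lowest median, -3.01, with 3 higher and 102 lower. In the H3K4me3 cells the longest class had a median of 3.38, with 742 of 1801 genes higher and 4 lower, and the intronless genes 0.09, with 29 of 290 higher and 19 lower (6.55%, the highest share lower of the 6 classes). The longest class thus had the highest median in both comparisons, and the intronless genes the highest share called lower. The low median of intronless genes did not recur in the H3K4me3 cells. There the 3 classes from 1 to 30000 bases lay below them, at 0.01, -0.08 and -0.01.

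**Figure D4:**
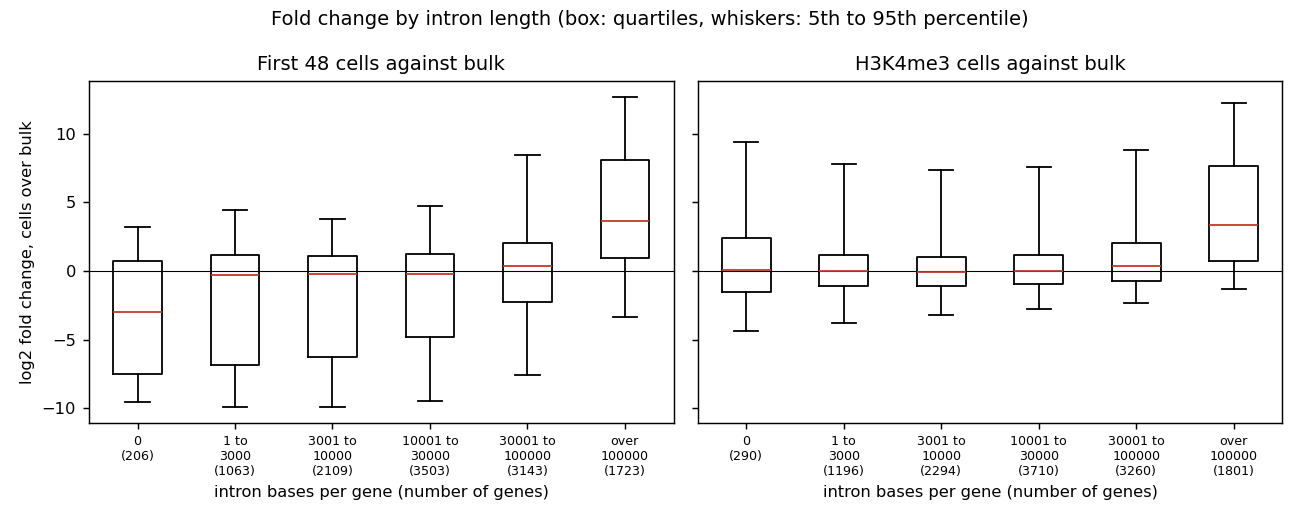
Log2 fold change of single cells over bulk (y axis) by intron bases per gene (x axis) in the first 48 cells (left) and the H3K4me3 cells (right). Boxes are quartiles with the median in red, whiskers the 5th to 95th percentile, and the number of genes stands in parentheses. The class over 100000 bases lies at a median of 3.66 and 3.38, above every other class of its panel.

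Held to genes at 10 to 100 CPM in bulk, the order of the ends stayed and the size shrank. Genes over 100000 intron bases had a median of 1.19 there (573 genes, 85 higher, 77 lower), and intronless genes -0.52 (91 genes, 0 higher, 28 lower). In the H3K4me3 cells these medians were 0.39 and -0.75. Leaving out the even genes, the longest class kept a median of 2.73 over 1499 genes, with 631 higher and 142 lower. In counts, genes over 100000 intron bases held 41.7%, 37.9% and 16.6% of the sums against 4.44% to 5.07% of bulk, and intronless genes 0.329%, 0.256% and 0.754% against 1.2% to 1.27%.

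Stretches of A in introns were counted, since oligo-dT can prime there. Over all genes the median log2 fold change went from -0.13 with no run of 15 or more A on the transcribed strand to 4.22 with over 5 runs. Long introns hold more such runs. Within the class over 100000 bases, the 861 genes with more A runs per 10000 intron bases than the class median had a median of 2.77, and the 862 with fewer 4.63. Runs of T on the same strand, which are A runs on the other strand, gave 2.00 and 6.23. Bulk levels differed between these sets, with a median of 6.61 and 2.35 CPM for A runs and 10.4 and 1.27 CPM for T runs, and genes low in bulk passed the filter on low counts through the cells, so no relation to run density is read from these values.

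Genes hardly seen in bulk made up much of the excess. The 5492 genes under 1 CPM in bulk held 24.6%, 24.1% and 10.0% of counts in the sums against 0.0684% to 0.269% in bulk. The 1001 of them that were tested passed the filter on low counts through the cells, so their median of 9.48 had to be high. At 1 to 10 CPM in bulk the median was -1.26, with 407 of 3681 genes higher and 1693 lower. Over 100 CPM it was 0.17, with 72 of 1199 higher and 14 lower.

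Genes with near-copies elsewhere in the genome also stood higher. Repetition was measured as the share of a gene's exonic 31-base words that occur at another place of mm9. The 581 genes with over 50% such words had a median log2 fold change of 1.03, with 163 higher and 100 lower, against 0.06 in 5196 genes with none, with 674 higher and 1617 lower. At 10 to 100 CPM in bulk the medians were 0.93 and 0.01. The H3K4me3 cells gave 1.43 and 0.25. The bulk libraries were counted without reads that map to several places, and how the single-cell table treated such reads is not given in the sources used here, so counts of these genes are uncertain in both.

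Rows of the single-cell table were spread unevenly around very long annotated genes. In the annotation 64 genes have copies on 1 strand of a chromosome that lie 3000000 bases or more apart, giving 83 long spans. Of 280 genes with over 100 bulk counts that lie inside such a span on its strand, 0 had a row in the single-cell table used here. Of 228 that lie inside a span only on the other strand, 223 had one (97.8%), and of 8320 in no span, 8220 (98.8%). Inside the span of Mir684-1 on chromosome 11, 0 of 163 minus-strand genes and 153 of 154 plus-strand genes had a row. Inside that of Mir3084-1 on chromosome 19 these were 0 of 59 and 61 of 63. The 5 genes with the highest level in bulk and no count in the cells all lay in such spans on their strand. Uba1, the ubiquitin-activating enzyme, stood at 781 to 875 CPM in bulk and lies within spans of Btbd35f genes on the X chromosome. Atp5g1, a subunit of ATP synthase, Calcoco2, an autophagy receptor, Rpl23, a ribosomal protein, and Nme2, a nucleoside diphosphate kinase, stood at 426 to 750 CPM and lie within the Mir684-1 span.

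The counts on the spanning genes can be set beside the bulk counts of the genes they span. The 420 genes inside the Mir684-1 span on its strand held 2.13% to 2.2% of bulk counts, and the Mir684-1 row held 1.88%, 1.59% and 2.62% of the sums, at 503670, 439245 and 352980 counts against 1 to 10 in bulk. Mir684-1 was also among the most even genes, with a CV of 0.156, 0.175 and 0.211 in the 3 experiments and 1388 to 2286, 1205 to 2120 and 1767 to 3745 thinned counts per cell. For Mir3084-1 the values differed more: the 161 genes inside held 0.383% to 0.396% of bulk, and its row held 4.23%, 4.44% and 0.705% of the sums. Its thinned counts ran from 2736 to 5965, from 1946 to 6286 and from 287 to 1614. Gm3629 held 0.0957%, 0.0925% and 0.187% of the sums, and the 27 genes in its chromosome 14 span 0.0577% to 0.071% of bulk. Values of these rows are therefore not read as the level of a microRNA.

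Gene lists were followed by function. Long neuronal genes, synaptic and adhesion genes that stem cells hardly express, were higher in 25 of 26 members and lower in none, with a median of 11.08 against 0.26 for all genes, and 24 of 26 were higher in the H3K4me3 cells. Cntnap2 of the axonal membrane had 5043, 3769 and 460 CPM in the sums and 0.711 to 2.83 in bulk (log2 fold change 10.74, SE 1.28, edgeR adjusted p = 0.0025), and Ptprt, a receptor phosphatase, 3265, 1621 and 197 against 0 to 1.83. Opcml, an adhesion molecule, was high in sum 1 only, at 6082, 72.6 and 2.89 CPM against 1 bulk count. Together the list held 1.82%, 1.52% and 0.503% of counts in the sums and 0.00788% to 0.01% in bulk. Of its members 15 were even in experiment 1 or 2. Members this low in bulk pass the filter on low counts largely through the cells. Little is therefore read from the median of 11.08 or from the recurrence in the H3K4me3 cells.

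Among translation genes, 59 of 80 ribosomal protein genes were higher and none lower, against 14.2% and 28% of all genes tested. Their median was 2.62 against 0.26 for all genes. With DESeq2 72 were higher and 0 lower, at a median of 3.46, so the size of the rise rests on the scaling. The list was not tested on unscaled totals. A median of 67.6% of their exonic words occurred elsewhere in the genome. Rpl41 had 4447, 3955 and 5321 CPM against 2883 to 3669 (log2 fold change 0.49, SE 0.20, edgeR adjusted p = 0.105) and Rps3 3585 to 3726 against 1960 to 3107 (0.55, SE 0.19), and neither was called. Unscaled, Rpl41 was lower in each sum (0.139%, 0.134% and 0.478% of counts) than in bulk (5300 to 6228 raw CPM). In the H3K4me3 cells 19 of 80 were called higher. Of snoRNA host genes, which carry small nucleolar RNAs in their introns, 5 of 14 were higher and none lower. Ncl, nucleolin, rose by 1.42 and Hspa8 by 3.94 on the log2 scale.

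Chaperones and metabolic genes were followed next, with counts that rest on the scaling. Of 15 heat shock and chaperone genes 3 were higher and 0 lower, against 14.2% and 28% of all genes, and 9 were higher with DESeq2. Unscaled, the list held 0.983%, 0.753% and 1.56% of counts in the sums against 1.52% to 1.67% in bulk. Hspa8, the constitutive HSC70, had 6649, 3309 and 4615 CPM against 246 to 419, and 91.3% of its exonic words occur elsewhere. Hsp90aa1 rose by 1.55 (88.8% elsewhere), and Hsp90ab1 stood at 0.72, with an adjusted p of 0.0306 from edgeR and a change under the limit of 1. Gapdh, the glycolytic enzyme with many processed pseudogenes, had 2228, 1479 and 1481 CPM against 5.08 to 10.8 (log2 fold change 8.0, SE 0.48, edgeR adjusted p = 0.00242), with 80.8% of words elsewhere. Ldha, lactate dehydrogenase, fell, at 587, 936 and 882 CPM against 1718 to 1943 (-1.18, SE 0.31), and 2 of 13 glycolysis genes were higher and 2 lower. Of 75 nuclear-encoded respiratory chain genes 7 were higher and 2 lower, with a median of 0.46, and 32 and 4 with DESeq2. Cox4i1, a cytochrome c oxidase subunit without repeated words, rose from 498 to 709 CPM in bulk to 1429 to 1671 (1.38, SE 0.28), and Atp5b stood at 1867 to 2114 against 1704 to 1926 (0.14, SE 0.23). Of 77 mitochondrial ribosomal protein genes 7 were higher and 6 lower (21 and 8 with DESeq2), of 35 proteasome genes 2 higher and 0 lower, and of 15 cholesterol synthesis genes 0 higher and 3 lower.

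Of 24 pluripotency factors 3 were higher and 3 lower, with a median of 0.24 against 0.26 for all genes, of which 14.2% were higher and 28% lower. With DESeq2 9 were higher and 3 lower. Jarid2, a PRC2 cofactor with 184712 intron bases, had 1892, 840 and 1371 CPM against 123 to 135 (log2 fold change 3.40, SE 0.42, edgeR adjusted p = 0.0025), and Zfp42 763 to 1118 against 399 to 429 (1.23, SE 0.33). Unscaled, Zfp42 held 0.0349%, 0.0354% and 0.0686% of counts in the sums, with 678 to 789 raw CPM in bulk. Its rise thus rests on the scaling. The whole list held 0.288%, 0.259% and 0.602% of counts in the sums against 0.892% to 0.954% in bulk. Nanog stood at 821, 320 and 387 CPM against 740 to 779 and Dppa5a at 1063 to 1994 against 962 to 1161, and neither was called. Of 9 primed and germ layer genes 1 was higher and 2 lower, of 19 S phase genes 1 higher and 0 lower, of 20 G2 and M phase genes 0 higher and 2 lower, and of 14 p53 targets 0 higher and 3 lower. Of 6 primitive endoderm markers 1 was higher, and of 4 trophoblast and 3 fibroblast markers 2 each were lower. Of 10 immediate early genes 2 were lower, and 1 of 7 genes of the two-cell-like state was lower.

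The single cells, but not the bulk cells, had met Wnt3a. Of 12 Wnt target genes 1 was higher and 1 lower, against 14.2% and 28% of all genes tested, so the list did not exceed all genes in either direction. Nkd1, a feedback inhibitor of Wnt signalling with 69085 intron bases, had 382, 767 and 266 CPM in the sums and 0.711 to 2.88 in bulk (log2 fold change 7.95, SE 0.78, edgeR adjusted p = 0.0025). Its thinned counts ran from 6 to 21 in experiment 1 and from 7 to 63 in experiment 2. Nkd1 met the limits of an even gene in experiment 2, and without the even genes 0 of 11 Wnt targets were higher and 1 lower. In experiment 3 the highest cell had 144, the next 1, and the median cell 0. Axin2, the common Wnt reporter gene, had 14 thinned counts in 1 cell of experiment 1 and 0 in every other of the 46 cells. It held 0.000607%, 0% and 0% of the sums against 48.1 to 63.9 raw CPM in bulk, and so lay below bulk, opposite to Nkd1. Of genes at 10 to 100 raw CPM in bulk, without the even ones, 42.9% reached 10 counts in no cell. Ccnd1 at 92.2, 163 and 142 CPM against 52.6 to 70.9 and Myc at 2.03, 77.3 and 166 against 13.7 to 20.5 did not pass.

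RNAs that stay in the nucleus are of interest because the expression library is made from cytoplasm. Of 9 nuclear-retained long noncoding RNAs 6 were lower and none higher, with a median of -3.45 (6 lower and 2 higher with DESeq2), and of 11 in the H3K4me3 cells 1 was higher and 0 lower. Tug1 had 0.477, 0.533 and 0.578 CPM against 35.2 to 39.8 (log2 fold change -6.09, SE 0.70, edgeR adjusted p = 0.0025). Malat1, the abundant speckle RNA without introns, had 646, 359 and 13.9 CPM against 58.8 to 73.2 and was not called. Of 19 imprinted genes 8 were lower and none higher, against 28% and 14.2% of all genes, with a median of 0.21 close to the 0.26 of all genes (8 lower and 1 higher with DESeq2). Plagl1, a zinc finger regulator, had 1.67, 0 and 0 CPM against 99.7 to 108. Of 10 tested microRNA genes 5 were higher and 2 lower. Mir682, with 71.4% of its words elsewhere, fell, at 96.2 to 121 CPM against 451 to 679. Small nucleolar RNA, Hox and histone genes were tested in 1, 3 and 3 members, of which 1, 2 and 1 were lower and 2 histone genes higher.

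**Figure D5:**
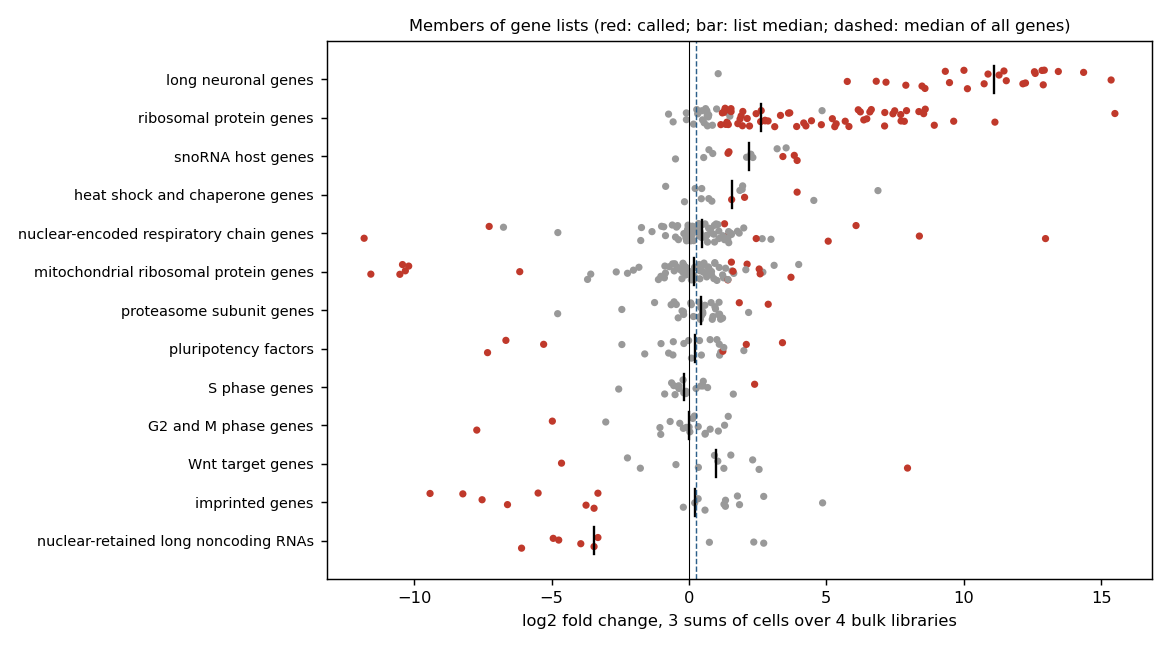
Log2 fold change of the 3 sums over the 4 bulk libraries (x axis) for the tested members of 13 gene lists (rows), 1 point per gene, called genes in red, with a bar at the list median and a dashed line at the median of all genes, 0.26. Long neuronal genes lie at a median of 11.08 and ribosomal protein genes at 2.62, and nuclear-retained long noncoding RNAs at -3.45.

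Variation between cells was ranked by the squared CV of thinned counts divided by its running median over genes of like mean, in each experiment on its own. Of 2613 genes with a mean of at least 5, 7 had a ratio of at least 2 in all 3 experiments, among them Apoe, Rpl36, Rpl32, Larp4, Dohh and Nosip. The ribosomal protein gene Rpl36 had ratios of 10.1, 8 and 2.45 and Rpl32 8.98, 9.4 and 2.34. Rpl36 ran from 0 to 275, 0 to 176 and 0 to 1065 thinned counts per cell. Rpl32 reached 10 counts in 10, 11 and 13 cells of the 3 experiments. In experiment 3, which gave both genes their lowest ratio, 1 cell stood above the rest, with 1703 against 436 in the next for Rpl32 and 1065 against 370 for Rpl36. The running median they were set against included the even genes in experiments 1 and 2, and its part in their ratios was not tested. Just under the limit were Chchd2, Lbhd1 and Yif1a, with a lowest ratio of 1.96, 1.94 and 1.90.

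Apoe, a lipid transport gene, had a highest cell of 247, 151 and 1089 and a median of 0 in each experiment, with a next highest cell of 4, 135 and 2. Larp4, Dohh and Nosip each reached 10 counts in at most 2 cells of any experiment, and Larp4 in none of experiments 1 and 2. Leaving out the highest cell of each gene and experiment, 3 genes were variable, 1 of them among the 7. In cells not used for the choice, the 4 of the 7 genes that could be measured in H3K27me3 experiment 6 had a ratio of at least 2 there, at a background of 18.2% of 1376 genes, and in H3K4me3 experiment 5 this held for 3 of 6, at 6.91%. It held for none in H3K4me3 experiments 1, 2, 3 and 6.

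By class, ribosomal protein genes had median ratios of 6.33, 6.41 and 0.882 in experiments 1, 2 and 3 and heat shock genes 5.74, 5.13 and 0.966, whereas long neuronal genes had 0.226, 0.253 and 0.963. Genes over 100000 intron bases were the least variable intron class, with a median of 0.128 for the lowest of a gene's 3 ratios against 0.639 over all genes measured. The genes with the lowest single ratio were Uggt2, Slc4a4, Oprm1, Rcbtb1 and Inhba, each in experiment 1. They were not the least variable throughout, since Slc4a4 had a ratio of 2.23 in experiment 2 and Inhba 1.35 in experiment 3. Oprm1, the mu opioid receptor gene of neurons, had 3 to 10 thinned counts in every cell of experiment 1, 3 to 21 in every cell of experiment 2 and 0 to 2 in experiment 3. Of 4 genes of the two-cell-like state, a rare state of mESC cultures, no thinned cell of experiments 1 and 2 had more than 2 counts. In experiment 3 Zscan4d reached 219 and 148 in 2 cells, Zfp352 109 in 1, Zscan4a 116 in 1 and Usp17lc 492 in 1, with medians of 0.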

How the data were processed

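Expression libraries of SET-seq were analysed from deposited counts. Per the labels and the study's methods, the authors trimmed reads with Trim Galore 0.6.4 and mapped them to mm9 with STAR 2.5.4b. Bulk counts were deposited per gene as featureCounts 2.0.0 read pairs over exons, without strand and without multi-mapping or overlapping reads. Single-cell counts were deposited as a zUMIs table per gene and cell over exons and introns, without molecular identifiers. Duplicate reads were therefore counted, and intervals and floors cover counting error only.

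From these counts, 17622 genes listed in both kinds of file entered, without Rn45s. The main fit was edgeR 4.0.16 in R 4.3.3 (TMM, filterByExpr, quasi-likelihood test, Benjamini-Hochberg adjustment over all genes tested) on 3 sums of 16 cells, 2 bulk libraries of 1000 and 2 of 10000 cells, with the sums set against the mean of both bulk groups. Total counts per library were 1585518 to 30381277. Sums of the 6 H3K4me3 experiments against 4 H3K4me3 bulk libraries formed a second comparison fitted the same way. Nothing in the labels says that the bulk libraries came from separate cultures, so p-values measure the spread between these libraries, which may be technical. Cells were thinned to 100000 counts with Python 3.11.15 (numpy 2.4.6, pandas 2.3.3, scipy 1.17.1; figures with matplotlib 3.10.9). Intron lengths came from the coordinates in the bulk files. The genome given matched mm9, with no gene beyond a chromosome end and GT and AG ends in 96.1% of 198902 introns. Fold changes of genes at 0 in a group were given against a floor of 3 counts over the group.

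Genes were named by rules: the 10 largest rises and falls without overlap at a mean log2 CPM of at least 5 and without shared exon bases; the 4 members of each list with the highest CPM; the 15 most and 5 least variable; the 5 highest at 0 counts in bulk; and the 5 highest at 0 or without a row in the cells. The genes shown per cell and the even genes were chosen after their values were seen. The members and lists were chosen with earlier results of these data known. In simulated counts with the spread of the main comparison over 12510 genes, edgeR called 0%, 10%, 18% and 30% of genes changed 4-fold, 16-fold, 64-fold and 256-fold, and 0.0162% of unchanged genes. Unchanged genes there had the same mean in cells and bulk, and no signal was shared by barcode. These rates therefore do not show how many calls in these data are false. The ranking by variation was tested on simulated data and recovered 100% of 200 changed genes among 4000. Those data had no even genes, no depth differences and no thinning, so the recovery does not show how the ranking performs in these cells. Alternatives were DESeq2 1.42.0, other scaling, filters, depths and left-out libraries. Some genes that these rules name are not reported here.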

Additional observations from a re-analysis of the deposited data

Results flagged for a closer look

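The share of counts on the 226 even genes of experiments 1 and 2 was 25.2% in H3K4me3 experiment 4, against 4.42% to 9.56% in the other 5 H3K4me3 experiments, and that library stood apart by the gap to its nearest neighbour. The same experiment stood apart for genes under 1 CPM in bulk, at 29.8% against 5.36% to 9.94%. Among H3K27me3 experiments 4 to 10, experiment 7 was apart on the low side at 13.8%, with the others at 34.2% to 47.9%. Chance gives such a flag in about 1 of 20 groups, and 5 groups were tested. H3K27me3 experiment 5, which enters no comparison, had 47.9% of its counts on the 226 genes, above the 0.559% to 0.672% of bulk.

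The contrast of cells with bulk differed between the 2 comparisons in a test of the difference itself, with 1957 of 13044 genes lower and 187 higher in the H3K27me3 than in the H3K4me3 comparison.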

How the results depend on the processing

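The count of lower genes (3291) stayed within 1.5 times under every alternative run, and none of the 32 genes followed changed direction in a setting that gave it a value (19 of them without the even genes), though up to 8 lost the call, with the 10000-cell or 1000-cell bulk libraries alone. Every setting rescaled the libraries by TMM, RLE or DESeq2, so direction under unscaled totals was not tested. Genes called higher (1668) were 3024 with DESeq2, 2561 without the filter on low counts, 542 with the bulk libraries of 10000 cells alone and 720 with those of 1000 alone, and 796 to 2247 when 1 library or sum was left out, lowest without 10000-cell replicate 1. The share of calls that were higher was 33.6% with TMM, 47.8% with DESeq2 and 44.5% with TMM from intronless genes, and the median of all genes moved from 0.26 to 1.01 and 1.3. Intronless genes (median -3.01) stood at -2.22 with DESeq2, -2.19 with RLE, -1.76 with TMM from intronless genes, -0.66 without the filter, -2.57 with Rn45s, -5.08 in cells of 1000 to 5000 genes, -2.52 thinned, -1.18 and -1.93 against the 10000-cell and 1000-cell libraries, and -4.48 to -0.92 leaving 1 out. Genes over 100000 intron bases (3.66) stood at 4.42 with DESeq2, 4.42 with RLE, 4.62 with intronless TMM, 2.21 in cells of 1000 to 5000 genes, 2.45 thinned, 4.18 against 1000-cell libraries and 2.90 to 4.29 leaving 1 out. Of settings added after seeing the data, removal of counts shared by barcode gave -2.92 for intronless genes, with 1330 genes higher and 3290 lower, and removal of even genes gave -2.38 and 3.30 for the 2 classes. The long neuronal list had 19 to 25 higher members in settings that kept the even genes, and the ribosomal list 42 to 74.

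In the H3K4me3 comparison the higher genes (1511) were 281 and 367 against the 10000-cell and 1000-cell libraries and 427 to 1577 leaving 1 out. Its lower genes (225) were 67 without the filter, 727 in cells of 1000 to 5000 genes, 25 against 1000-cell libraries and 2 to 1010 leaving 1 out, highest without H3K4me3 experiment 6. Against 10000-cell libraries edgeR called 0, with 286 at an unadjusted p below 0.05, and DESeq2 on all libraries called 270. Variable genes (7) were 11 without thinning, 3 at a mean of 20, 3 without the highest cell, and 17, 19 and 162 without experiment 1, 2 or 3. The cause of these moves was not tested.

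Same-number libraries correlated at -0.0548 to 0.053 in their deviations, so the numbers were not taken to pair them. With the replicate block 2009 genes were higher and 4581 lower, the 2 intron classes stood at -4.51 and 2.77, and the H3K4me3 comparison had 3360 lower. Of the 48 cells, 2 lay under 100000 counts and entered no comparison between cells.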
